A study of Mus musculus with 3 samples.

Results

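Partially methylated site clusters on the autosomes of ID8 cells are described here. They are short stretches of the genome in which several neighbouring CCCGGG sites were read and at least 1 of them carried methylation at a middle level. A cluster is a run of listed CCCGGG sites with gaps of at most 500 bp on chromosomes 1 to 19, with at least 3 covered sites. A covered site had at least 10 reads in each of the 3 libraries. The level of a site is the percentage of its reads that were methylated, averaged over the libraries. Sites under 10% are called low, sites from 10% to under 70% partial, and sites at 70% or more high. A cluster was chosen when it held at least 1 partial site and did not hold both a low and a high site. The clusters were thus chosen by their methylation levels. By this rule 418 of 1709 autosomal clusters (24.5%) were chosen, with 1492 covered sites, of which 701 were partial, 329 low and 462 high. For that reason the levels are a description, with no test.

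ID8 is an ovarian cancer cell line of C57BL/6 mice that the labels give as female ovarian surface epithelial cells. All 3 libraries, called replicates 1, 2 and 3, form 1 untreated group of cells cultured in RPMI medium with serum and gentamicin, and no control or other condition enters here. Methylation was read by DREAM, in which DNA is cut with SmaI, which spares methylated CCCGGG, and then with XmaI, which cuts what is left, so that each sequenced fragment end records whether its site was methylated. The libraries held 7689526, 9190335 and 10361138 reads, and the median covered site of these clusters had 286, 375.5 and 412 reads. The series calls the samples independent but does not state separate cultures. SDs thus cover the spread among these libraries alone, and that spread can be technical. The exact p-values cover counting error of the reads only.

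In mammals DNA methylation sits mainly on CpG, where a maintenance enzyme copies it to the new strand at each cell division. CpG-rich stretches at gene starts are mostly free of it, and much of the remaining genome carries it. A middle level in a cell line can come from alleles that differ, as at imprinted genes, from cells that differ, or from sites that gain and lose the mark. A share of reads per site cannot tell these apart.

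No annotation of the mm9 build was used. Gene starts were placed by sequence instead, a step added once the tables had been opened. RefSeq promoter sequences (build GRCm38.p6) hold the 250 bases before each start and a short stretch after it. They were matched to the listed sites by the distances between their CCCGGG sites, which name a place on the chromosome when the pattern occurs once. Of the 418 clusters, 15 (3.59%) held a start matched in this way. All 15 are named here, whatever their levels. They are Kit, Klf3, Ski, Mycl, Ncam2 and Fam189b, in clusters of partial and low sites, and Pid1, Ptpn5, Hrk, Hunk, Smagp, BC034090, Gm14261, Gm15609 and Gm52630, in clusters of partial and high sites. Mycl, Ncam2, Fam189b, Hrk, Hunk and Smagp were placed by 2 sites, so by a single distance and the limit of 10 Mb. Only 73 of 659 promoters with 2 sites matched 1 place. Of all 1709 autosomal clusters, 86 (5.03%) held a matched start. Of the 812 with low sites only it was 54 (6.65%), and of the 201 with high sites only, 4 (1.99%). Of the 278 with both low and high sites it was 13 (4.68%). Promoters with few CCCGGG sites cannot be placed, so these shares do not count promoters.

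The sequences of 6 of these starts follow, 3 from each kind of cluster, chosen as examples after their values were seen. Each is written 5′ to 3′ in the direction of the gene and ends 30 bases past the RefSeq start. Capitals mark the CCCGGG sites, where the assay reads methylation. Of these, the sites at -162 in Kit, -92 in Klf3, -167 in Ncam2 and -235 in Hrk, counted in bases from the start, were not covered. Kit, Klf3, Ncam2 and Hrk lie on the plus strand, and Pid1 and Ptpn5 on the minus strand.
Kit: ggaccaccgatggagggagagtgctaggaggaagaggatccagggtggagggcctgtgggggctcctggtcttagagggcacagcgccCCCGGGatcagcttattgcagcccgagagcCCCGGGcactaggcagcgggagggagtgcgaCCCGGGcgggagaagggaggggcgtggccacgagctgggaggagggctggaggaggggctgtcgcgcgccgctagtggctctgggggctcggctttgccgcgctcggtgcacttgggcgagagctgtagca
Klf3: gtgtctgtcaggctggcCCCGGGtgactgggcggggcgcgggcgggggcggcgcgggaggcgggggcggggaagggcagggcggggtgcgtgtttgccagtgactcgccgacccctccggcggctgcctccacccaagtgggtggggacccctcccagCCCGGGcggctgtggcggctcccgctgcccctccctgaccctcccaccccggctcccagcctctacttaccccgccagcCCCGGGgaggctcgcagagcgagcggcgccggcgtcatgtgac
Ncam2: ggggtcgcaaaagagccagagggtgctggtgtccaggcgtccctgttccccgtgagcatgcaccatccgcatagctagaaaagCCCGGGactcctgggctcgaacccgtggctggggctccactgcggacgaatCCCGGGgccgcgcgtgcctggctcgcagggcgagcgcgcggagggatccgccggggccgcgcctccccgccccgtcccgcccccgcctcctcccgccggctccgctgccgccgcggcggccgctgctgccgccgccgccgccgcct
Pid1: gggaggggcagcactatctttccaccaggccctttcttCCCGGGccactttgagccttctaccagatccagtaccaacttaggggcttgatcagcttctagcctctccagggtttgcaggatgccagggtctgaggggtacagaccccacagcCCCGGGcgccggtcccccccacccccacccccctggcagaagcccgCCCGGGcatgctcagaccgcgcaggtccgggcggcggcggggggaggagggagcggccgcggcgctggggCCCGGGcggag
Hrk: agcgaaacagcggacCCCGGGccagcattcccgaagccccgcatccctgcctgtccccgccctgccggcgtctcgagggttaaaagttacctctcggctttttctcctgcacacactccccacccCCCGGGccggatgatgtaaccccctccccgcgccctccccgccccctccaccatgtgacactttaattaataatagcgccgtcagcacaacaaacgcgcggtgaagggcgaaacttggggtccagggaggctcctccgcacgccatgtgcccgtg
Ptpn5: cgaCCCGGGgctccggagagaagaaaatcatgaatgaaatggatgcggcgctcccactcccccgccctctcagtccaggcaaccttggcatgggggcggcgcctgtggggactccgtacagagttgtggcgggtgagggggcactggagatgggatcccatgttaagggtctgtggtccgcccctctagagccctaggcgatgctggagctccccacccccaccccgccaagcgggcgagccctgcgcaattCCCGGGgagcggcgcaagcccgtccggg
In the 280 bases shown, Klf3 has 29 CpG and Ncam2 39, against 20 in Kit and 18 in Pid1.

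Kit encodes the receptor tyrosine kinase for stem cell factor. The 3 sites shown for Kit lie at -162, -132 and -101 from its start on chromosome 5 (mm9, cluster from 75970883 to 75971333), where a minus sign means before the start. The site at -132 was at 51.7%, 53.6% and 66.7% in replicates 1, 2 and 3, a mean of 57.3% ± 8.15 (SD, n = 3) over only 99 reads. At -101 the level dropped to 0.305%, 0% and 0.661% over 1218 reads. Past the start it rose again, to 17.3%, 20.9% and 20.5% at 179 over 2039 reads. The last covered site, at 318, had no methylated read among 149, which allows a share of up to 2.01% (3 reads of the total). Levels at Kit thus alternated between partial and low, in the same order in all 3 libraries. The site at -162 was not covered, with 13 reads in all.

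At the other gene starts with low sites, the partial site was the covered site farthest from the start. Klf3 encodes a zinc-finger transcription factor that can repress genes. In Klf3 (chromosome 5, 65193787 to 65194750) all 4 covered sites from -612 to -13 had means of 0% to 0.206%. The site at -976 stood apart, with 57.9%, 59.5% and 57.9%. Its mean of 58.4% ± 0.955 (SD, n = 3) rested on 2096 reads. Ski encodes a co-repressor of SMAD signalling. In Ski (chromosome 4, 154596369 to 154597763) the 4 covered sites from -727 to 273 had means of 0.0879% to 0.26%, against 26.1%, 24.0% and 27.5% at -1121.

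Ncam2 encodes a cell adhesion molecule of neurons. Its sites on chromosome 16 (81200829 to 81201292) carried 0% at -116, 1.49% ± 0.156 (SD, n = 3) at 109 and, in the 3 libraries, 34.6%, 34.0% and 41.7% at 347. Mycl encodes a transcription factor of the Myc family. On chromosome 4 (122673151 to 122673413) the level was 4.67% ± 0.225 at -26, 0.548% ± 0.483 at 43 and, in the 3 libraries, 38.3%, 28.5% and 33.8% at 236. Outside this cluster the level at Mycl was 63.8% ± 2.27 at 769, 98.9% ± 0.529 at 944 and 79.05% ± 4.83 at 1098. Those sites form a second cluster of the same set, of partial and high sites, from 122673946 to 122674275. At Fam189b (chromosome 3, 88987027 to 88987701) the level was 0.0326% at -41, 4.96% ± 1.56 at 342 and 25.9% ± 1.33 at 633, and the nearest covered site outside, at 1710, was at 91.3% ± 0.769. At Klf3 and Ski the nearest covered site outside, on the far side of the start, was low, with 0.248% ± 0.223 at 538 over 802 reads and 0% at 979 over 51 reads. In these 5 genes the libraries gave the same order of sites, apart from sites at or near 0.

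The 9 starts in clusters of partial and high sites had no low site, as the rule requires, and their partial sites lay on both sides of the start. Ptpn5 encodes a tyrosine phosphatase best known from the brain. In Ptpn5 (chromosome 7, 54387924 to 54388410) the sites at -444 and -247 were at 99.4% ± 0.995 (SD, n = 3) and 98.3% ± 2.96. At the start the level was lower: the site at 2 was at 33.3%, 35.2% and 29.3% over 1496 reads, and that at 42 at 14.6%, 13.9% and 9.88% over 194. Hrk encodes a BH3-only protein that promotes apoptosis. Its site at -125 on chromosome 5 (118619263 to 118619861) was at 32.7%, 31.3% and 27.6% over 690 reads. The remaining 4 covered sites of Hrk, from -513 to 85, lay between 81.7% and 89.9%.

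Pid1 encodes a phosphotyrosine-interaction domain protein. All 4 CCCGGG sites of the Pid1 sequence were covered (chromosome 1, 84280893 to 84281430), with levels of 66.5% ± 4.32 (SD, n = 3) at -212, 15.4% ± 9.19 at -97, 63.9% ± 5.84 at -51 and 97.1% ± 1.38 at 19. The first 2 of these rest on 53 and 56 reads, and the last on 1328. Smagp encodes a small transmembrane glycoprotein. On chromosome 15 (100467048 to 100467524) its sites at -155 and 10 were at 13.4% ± 1.35 and 10.4% ± 5.27, and those at 96 and 303 at 100% and 99.9% ± 0.187. The site at 10 was below the limit of the partial class in replicates 1 and 2, at 9.52% and 5.63%, and above it in replicate 3, at 16.1%. Hunk encodes a protein kinase of the AMPK-related family. In Hunk (chromosome 16, 90386331 to 90387139) 5 of 6 sites were high, and only 352 fell in the partial class, with 64.7%, 69.8% and 67.7%.

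BC034090 and the predicted genes Gm14261, Gm15609 and Gm52630 had cluster levels of 74.9% ± 1.98, 58.7% ± 2.73, 86.0% ± 0.724 and 79.8% ± 0.972 (SD, n = 3). In Gm14261 (chromosome 2, 168591051 to 168591720) 4 of 5 sites were partial, between 29.7% (42 reads) and 69.5% (1004 reads). In Gm52630 (chromosome 3, 108218496 to 108219373) the sites at -48 and -19 were at 56.0% ± 2.95 and 61.3% ± 3.82, between sites at 91.8% ± 2.29 and 95.1% ± 0.937. Over all 15 genes, 10 of the 13 covered sites within 300 bases of the start were low at the 6 genes of the first kind. At the 9 genes of the second kind 14 of 28 such sites were partial and 14 high. Over 300 bases from the start, 6 of 10 covered sites were low at genes of the first kind. At genes of the second kind 6 of 16 were partial and 10 high. The promoter sequences matched at these 15 clusters had a median ratio of observed to expected CpG of 0.802, from 0.244 at Fam189b to 1.12 at Ski. The median was 0.688 at genes of the first kind and 0.8065 at those of the second. It was 0.856 (0.443 to 1.21) at the 54 clusters with low sites only and 0.899 at the 4 with high sites only. At the 13 with both low and high sites it was 0.828, and over all 86 clusters with a matched start 0.847.

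**Figure D1:**
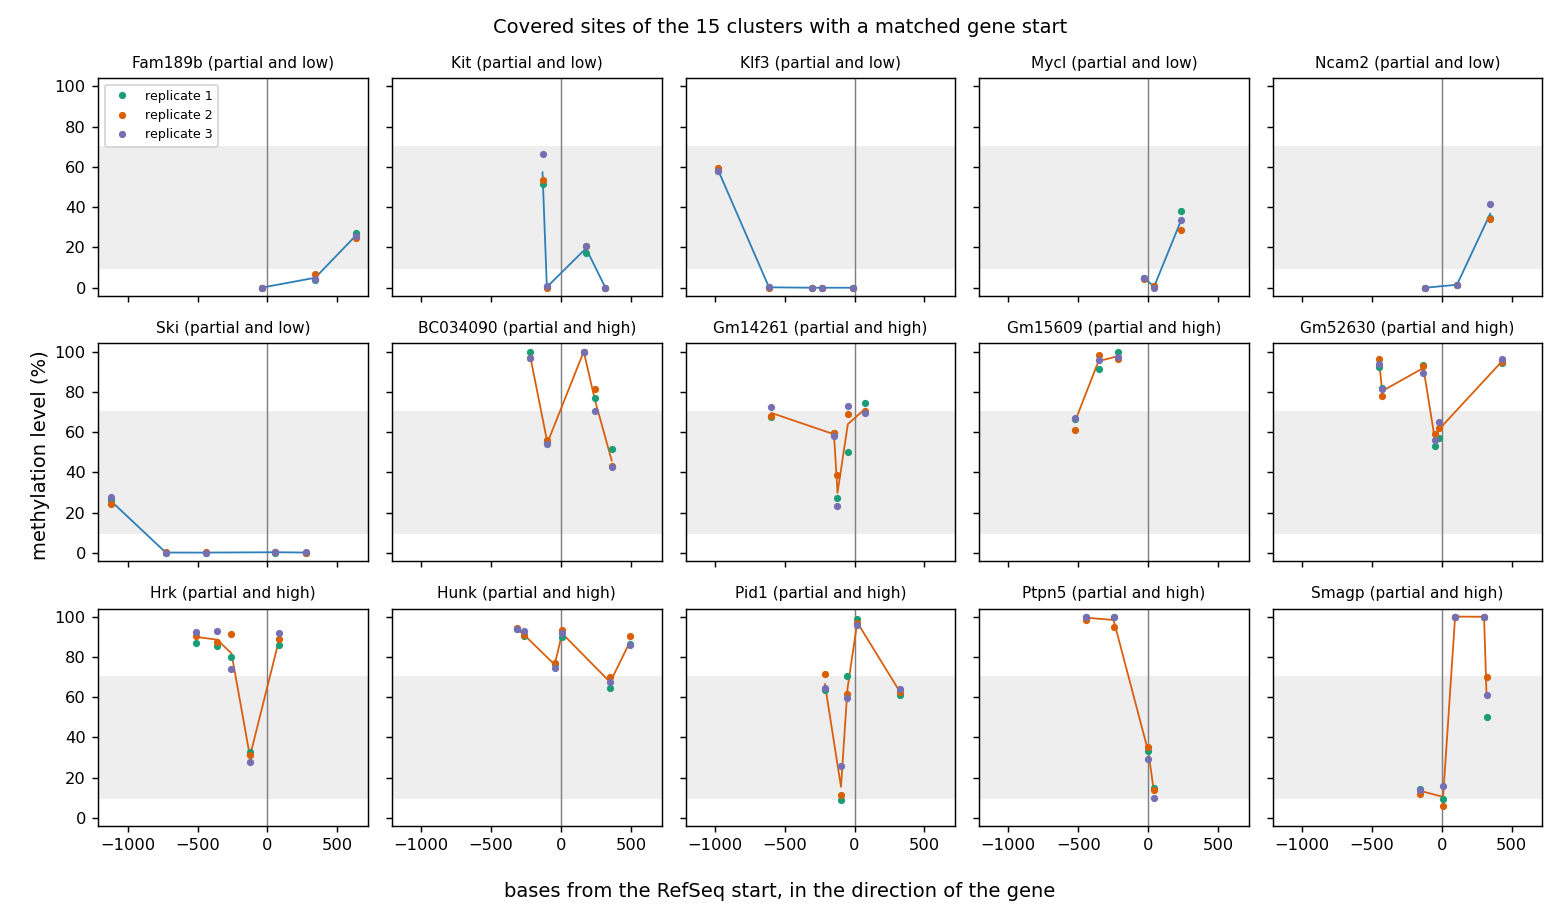
Methylation level (%) of each covered CCCGGG site against its distance in bases from the matched RefSeq start, for the 15 clusters with a matched start; dots are the 3 libraries, lines join the means, and grey marks the partial class from 10% to 70%. At Klf3, Ski, Ncam2, Mycl and Fam189b the sites near the start sit at the bottom and the partial site is the farthest one.

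The 418 clusters fall into 3 profiles. Every covered site was partial in 25 clusters (1.46% of the autosomal clusters), called partial-only. In 166 (9.71%) partial sites stood beside low ones, and in 227 (13.3%) beside high ones. The mean level of the clusters was 46.7%, 47.4% and 47.0% in replicates 1, 2 and 3 (47.05% ± 0.346, SD, n = 3). Single clusters ran from 2.16% to 91.9%, with the middle of the distribution from 18.5% to 74.6% (quartiles), so the set has no typical level. By profile, the mean was 36.8% ± 0.969 in partial-only clusters, 16.5% ± 0.201 in those with low sites and 70.6% ± 0.391 in those with high sites.

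**Figure D2:**
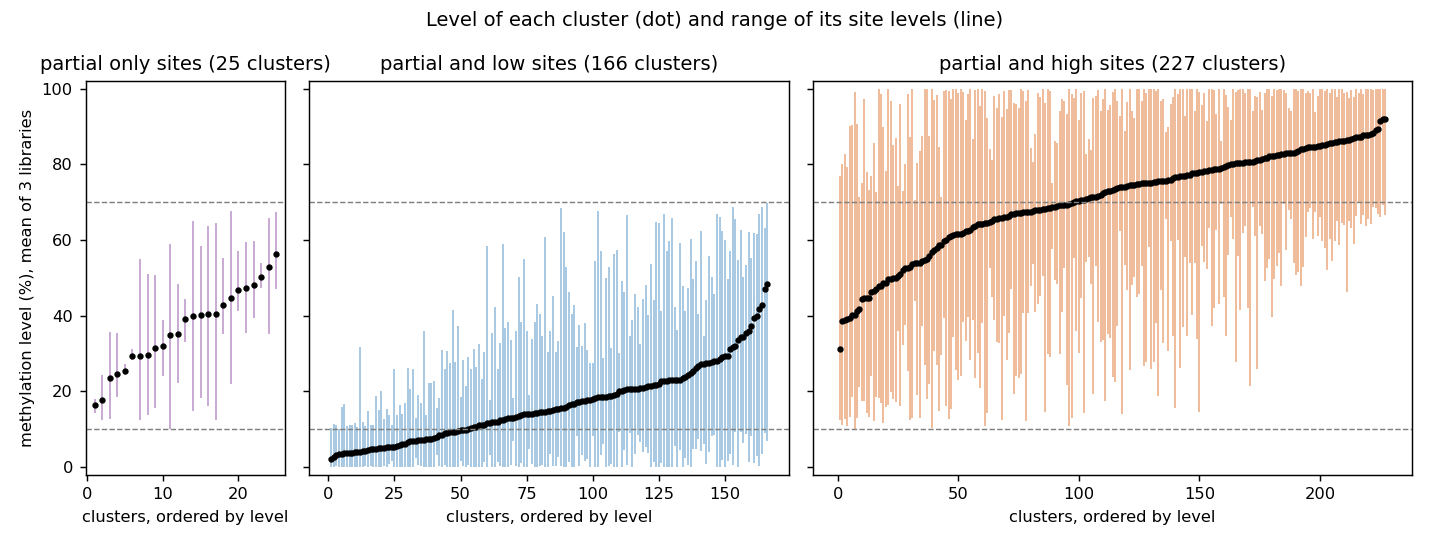
Each dot is the level (%) of a cluster, the mean over its covered sites and 3 libraries, and each line spans its lowest to highest site; the panels are the 3 profiles with 25, 166 and 227 clusters, ordered by level, and dashed lines mark 10% and 70%. Most lines are long: the median cluster spans 43.9 percentage points between its lowest and highest site.

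A single partial site was the usual case. Of the clusters with low sites, 90 of 166 (54.2%) held 1 partial site and 56 held 2, and of those with high sites 127 of 227 (55.9%) held 1 and 84 held 2. The 701 partial sites filled the whole class: 149 (21.3%) lay from 10% to under 20%, and each further step of 10 points held 105 to 119 sites. Beside low sites the partial levels leaned towards the bottom, with a median of 30.9%, and beside high sites towards the top, with a median of 45.8% and 87 of 353 sites (24.6%) from 60% to under 70%. The partial sites of partial-only clusters had a median of 35.6%.

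Where a cluster with low sites had 1 partial site, that site was the first or last covered site in 71 of 90 clusters (78.9%). End sites were 59.4% of the covered sites per cluster on average. With high sites the same held for 82 of 127 clusters (64.6%), beside 61.7% of sites being ends. Over all clusters with low sites the contrast was smaller: 161 of 332 end sites (48.5%) and 109 of 267 inner sites (40.8%) were partial. With high sites these were 203 of 454 (44.7%) and 150 of 361 (41.6%). The place of a site within its cluster was not used to choose the clusters. Levels rose or fell in 1 direction along the whole cluster in 10 of 25 partial-only clusters (40%), 53 of 166 with low sites (31.9%) and 62 of 227 with high sites (27.3%). An inner site stood above both ends in 61 (36.7%) and 81 (35.7%) clusters of the last 2 profiles, and an inner site stood below both ends in 49 (29.5%) and 89 (39.2%). Adjacent covered sites differed by a median of 12.6 percentage points beside low sites and 29.5 beside high sites, and by 15.04 in partial-only clusters.

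The limits of the rule cut through a continuous range of levels. The closest cluster inside the limit of 10% (chromosome 5, 121457380 to 121457850) had its highest site at 10.1%, and the closest one outside (chromosome 19, 46403136 to 46403541) at 9.43%. At the limit of 70%, the closest cluster inside (chromosome 1, 134479623 to 134479843) had its lowest site at 69.97% and the closest outside (chromosome 8, 123651984 to 123652484) at 70.01%. Of the 166 clusters with low sites, 21 had no site at 15% or more, and of the 227 with high sites, 22 had no site under 65%. By the levels of each library alone, 394, 401 and 395 of the 418 clusters met the rule, and 364 (87.1%) met it in every library. All 25 partial-only clusters were among the 364. At 589 of the 701 partial sites (84.0%) the exact Clopper-Pearson interval of the summed reads (95%) lay inside the class, and 368 clusters (88.0%) held at least 1 such site.

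The partial-only clusters are the stretches where no covered site was low or high. They lay on 15 of the 19 autosomes, with levels from 16.4% to 56.3% and a median of 39.2%. The authors' adjusted percent, which raises every level between 0 and 100% by multiplying the odds of methylated reads, put the same clusters between 26.5% and 70.02% with a median of 52.35%. Their sites were not at 1 common level. The lowest and highest site differed by under 10 percentage points in 4 clusters, by 30 or more in 10, and by a median of 22.9.

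The deepest partial-only cluster lay on chromosome 17 from 39985227 to 39985699, with 767908 reads, 25.01% of all reads of the 418 clusters. Its level was 33.5%, 36.2% and 35.9% in replicates 1, 2 and 3. Its 2 deepest sites were close to each other, with 48.2%, 48.6% and 48.5% at 39985227 and 45.5%, 46.4% and 45.6% at 39985472. The last site, 39985699, was lower, with 21.9%, 23.2% and 21.9%, and the shallow site 39985655 had 24.2% ± 4.87 (SD, n = 3) on 191 reads. A neighbouring cluster from 39983068 to 39983808 held another 365315 reads. There 39983068 carried 38.3% ± 0.544 (SD, n = 3) and 39983500 only 0.00841% ± 0.00503, so that partial and nearly unmethylated sites stood side by side at great depth. Whether these reads come from several genomic copies was not tested. Without both clusters the mean level of the set was 47.2% ± 0.343.

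The other partial-only clusters held between 666 and 9982 reads. On chromosome 4 from 153673692 to 153674337, the level was 38.9%, 40.6% and 41.8% in the 3 libraries, and the 3 sites followed at 41.4% ± 2.18 (SD, n = 3), 63.7% ± 1.14 and 16.1% ± 1.42. On chromosome 16 from 15085055 to 15085601 the level was 51.0%, 52.6% and 55.2%, and the sites fell along the cluster from 65.9% ± 2.59 through 57.9% ± 1.97 to 35.1% ± 1.90. On chromosome 6 from 120615433 to 120616172 the level was 55.7%, 56.2% and 57.0%, the highest of the profile. In each of these clusters every library gave the same order of sites.

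The remaining partial-only clusters named by the rule ranged from narrow to wide. On chromosome 1 from 136605656 to 136606234 the level was 38.4%, 39.2% and 40.01%, with sites at 44.5% ± 3.42 (SD, n = 3), 33.1% ± 0.86 and 39.9% ± 1.97. On chromosome 2 from 151874489 to 151875112 it was 48.2%, 48.9% and 47.6%. Its 4 sites lay between 39.3% and 59.7%, the lowest and highest on only 79 and 182 reads. On chromosome 6 from 42948860 to 42950787, the longest partial-only cluster, the level was 45.0%, 43.9% and 45.2%. The first site there was at 67.8% ± 0.508 and the third covered one at 21.9% ± 4.10. A cluster of chromosome 10 from 61573532 to 61574029, named after its values were seen, held 47.4% ± 0.719, 49.4% ± 0.47 and 54.1% ± 2.68, the nearest to an even level close to 50% in the deposited counts. By the adjusted percent that cluster was at 65.05% ± 2.401.

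**Figure D3:**
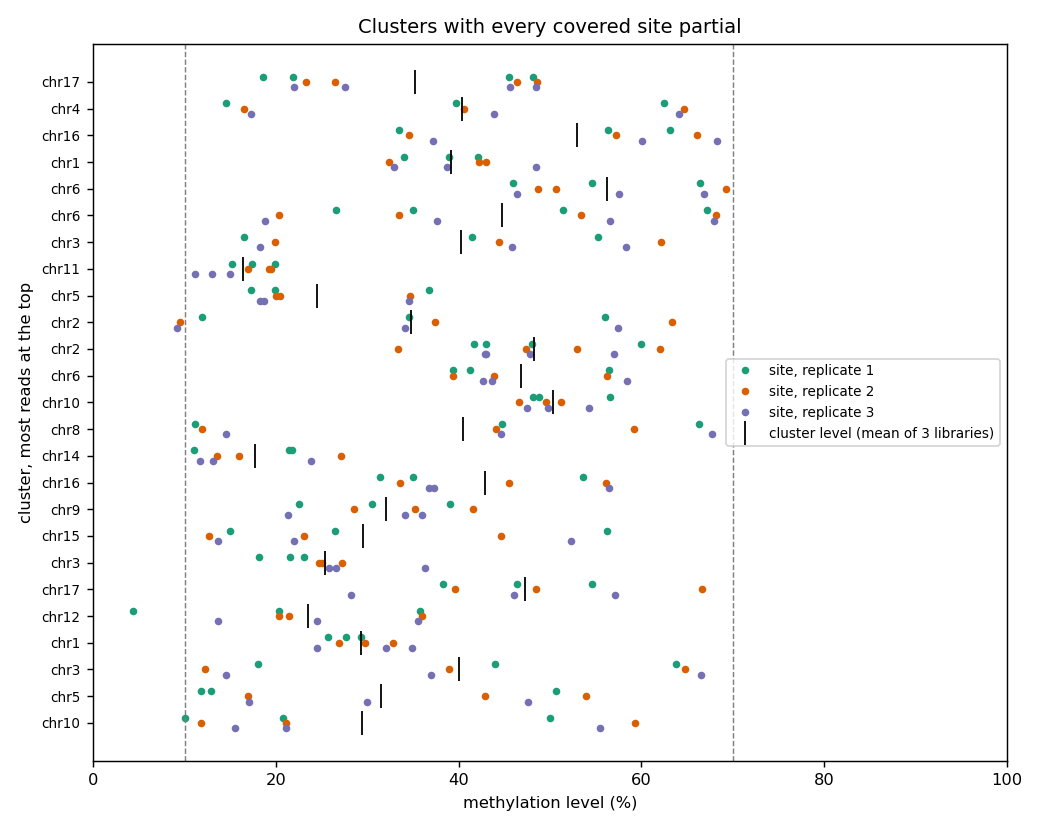
Methylation level (%) of each covered site in the 25 partial-only clusters, 1 row per cluster with the most reads at the top; coloured dots are the sites in the 3 libraries, black bars the cluster level, and dashed lines mark 10% and 70%. The median range between the sites of a cluster is 22.9 points. The median SD between libraries is 2.36 points for single sites and 1.72 for cluster levels, and a range and an SD are not like for like.

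Among the clusters of partial and low sites, one on chromosome 6 from 58119437 to 58121110, with 16211 reads, was partial over most of its length. Its first site was at 6.21% ± 1.60 (SD, n = 3), and the next 5 all lay between 29.1% and 34.6%. The cluster level was 27.7%, 27.2% and 27.1%. On chromosome 4 from 122878567 to 122879405, 5 of 7 sites were partial, between 12.6% and 67.0%, and the sites at 122878567 and 122879256 were at 0% and 0.794%. On chromosome 8 from 108350476 to 108351062 the first site, 108350476, carried 22.4% ± 0.742 over 5694 reads and its neighbour 108350771 0.12% ± 0.0665 over 8648. On chromosome 5 from 125342093 to 125343464, 8 of 9 sites were low, and 125342223 carried 31.8% ± 7.16 over 155 reads. On chromosome 4 from 134259113 to 134259987, 3 of 7 sites were partial, and the highest, at 60.9% ± 16.3, rested on 66 reads. On chromosome 6 from 47998033 to 47999398 only the last site left the low class, at 8.18%, 13.5% and 9.67%.

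Among the clusters of partial and high sites, the one on chromosome 11 from 33100596 to 33103316 held 9 covered sites, of which 8 lay between 78.5% and 100%. The partial site, 33102571, carried 68.8%, 64.8% and 64.3%, and its neighbour 33102139 had 78.5% ± 1.17 (SD, n = 3), so the level dipped only slightly within a methylated stretch. On chromosome 3 from 58809575 to 58811149, 3 high sites were followed by 2 partial ones, a high one and 3 partial ones. That single high site, 58810661, had 99.5% ± 0.186, between 65.4% ± 4.94 and 42.4% ± 3.39 at its neighbours. On chromosome 15 from 77864545 to 77865028 the 3 sites climbed from 12.96% ± 3.09 through 48.2% ± 0.32 to 99.8% ± 0.112. A second cluster of chromosome 15, from 84683983 to 84684671, was partial at 5 of 6 sites, with 35.7% ± 0.831 at the first and 78.1% ± 2.91 at the next. On chromosome 19 from 45307853 to 45308336, the sites at 45307853 and 45308104 had 5655 and 5672 reads and levels of 99.9% ± 0.0161 and 63.7% ± 1.37. On chromosome 17 from 51951975 to 51952911, 6 of 8 sites were high, and the deeper of the 2 partial ones, 51952019, had 66.2% ± 1.34 over 2129 reads.

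The clusters occurred on all 19 autosomes. Their share of the clusters of a chromosome ran from 15.7% on chromosome 13 (11 of 70, exact Clopper-Pearson interval 8.11% to 26.4%) to 30.8% on chromosome 10 (28 of 91, 21.5% to 41.3%). Each of the 19 intervals, taken over clusters as if they were independent, held the share of 24.5% found over all autosomes. Partial-only clusters were found on no more than 3 places of any chromosome. In extent the chosen clusters lay within the range of the other kinds, with a median span of 566 bp and 3 covered sites. The medians were 571 bp and 3 in low-only, 514 bp and 3 in high-only, and 635 bp and 3 in clusters with both low and high sites. The covered sites of the chosen clusters had a median of 1064 summed reads, beside 1239, 897 and 941.

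The spread between libraries was not used by the rule. The 701 partial sites had a median SD over the libraries of 2.58 percentage points. The SD expected from counting error alone, the root of its variance, had a median of 2.34 at their depths and levels. An SD of only 3 values tends to fall below that root, so these medians are not like for like. As root mean squares, the SDs were 1.07 times those expected. The low and high sites of the same clusters had median SDs over the libraries of 0.314 and 1.05. At 538 partial sites (76.7%) the SD was under 5 points, and at 42 (5.99%) it was 10 or more. All 42 of these had fewer than 300 summed reads. At the 378 partial sites with 1000 or more reads, the median SD was 1.73. The 2938 partial sites of the autosomes outside these clusters had a median SD of 3.38 and fewer reads (a median of 489.5 against 1203). The mean chi-square per pair of libraries, which is 1 with counting error alone, was 1.69, 1.49 and 1.46 at the partial sites of the clusters for replicates 1 and 2, 1 and 3, and 2 and 3. It was 1.44, 1.41 and 1.41 at partial sites elsewhere, which were read less deeply. With fewer than 300 reads it was 1.20, 1.26 and 0.986, and with 1000 or more 1.84, 1.496 and 1.67.

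**Figure D4:**
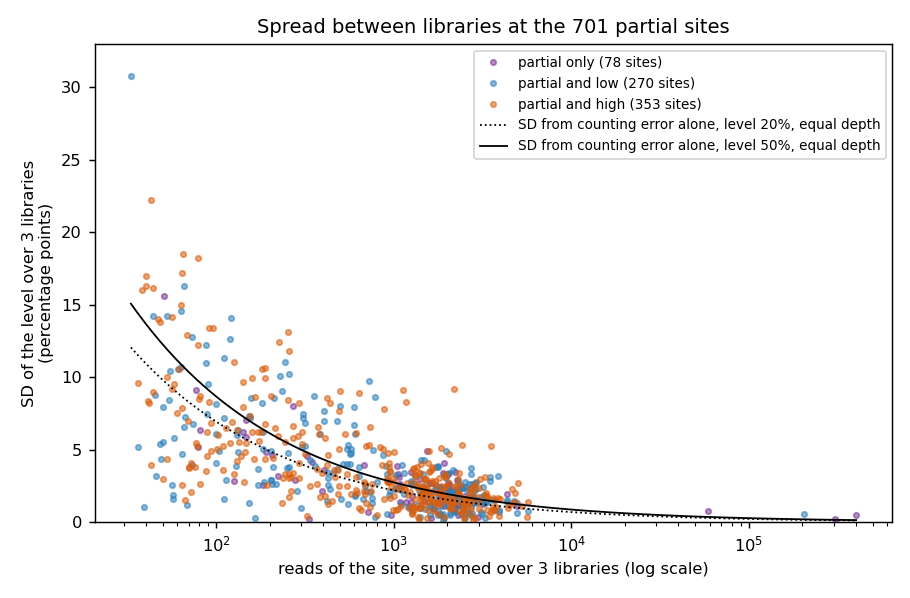
SD of the level over the 3 libraries (percentage points) against the summed reads of the site (log scale) for the 701 partial sites, coloured by profile; the lines give the SD from counting error alone at levels of 20% and 50%. The SD falls with depth, and sites with 10 points or more all have fewer than 300 reads.

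By the deposited counts, replicate 1 tended to lie below replicate 2. Of the 418 clusters, 248 were higher in replicate 2 and 170 in replicate 1, with a median difference of 0.498 percentage points. Between replicates 2 and 3, 177 were higher in replicate 3 and 241 in replicate 2 (median -0.257), and between 1 and 3 the counts were 220 and 198 in favour of replicate 3 (median 0.134). Cluster levels were within 5 points in 89.0%, 89.7% and 91.1% of the clusters for replicates 1 and 2, 1 and 3, and 2 and 3. The authors' adjusted percent multiplies the odds most in replicate 1, by 2.02 against 1.81 and 1.73 in replicates 2 and 3. Whether it keeps this order of the libraries was not tested. The SD of a single cluster level over the libraries had a median of 1.37 points. The clusters that moved most were mostly shallow. On chromosome 7 from 31911791 to 31912042 the level was 15.1%, 28.2% and 10.2%, with its first site read 33 times in all. The clusters starting at 98637093 on chromosome 15 (14.1%, 28.8% and 25.4%), 94406910 on chromosome 10 (90.2%, 80.8% and 75.5%) and 107252599 on chromosome 1 (9.86%, 22.8% and 20.3%) rested on partial sites with 43 to 251 reads. The partial-only cluster of chromosome 5 from 30890333 to 30890680 was at 25.1%, 37.9% and 31.6%, mostly through a site with 51 reads.

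Pairs of libraries were then compared site by site with Fisher's exact test (two-sided) on methylated and unmethylated reads, with Benjamini-Hochberg adjustment over all 24112 covered sites. Sites were called at an adjusted p below 0.05 where the levels also lay 20 or more percentage points apart. None of the 1492 sites was called in any pair, beside 0.00415%, 0.00415% and 0% of all sites for replicates 1 and 2, 1 and 3, and 2 and 3. The excess spread, a mean chi-square over all covered sites with large enough expected counts, was 1.40, 1.37 and 1.30 in the same order. The exact p-values leave it out. The chi-square test divided by the excess spread also gave 0 calls, here and among all sites (0%). At an unadjusted p under 0.05 the clusters held 99, 96 and 88 sites (6.64%, 6.43% and 5.90%), beside 3.02%, 3% and 2.84% of all covered sites. Partial sites, where the spread is largest, are 47.0% of the sites here and 15.4% of the autosomal covered sites, and their part in this was not tested.

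Without the minimum difference 3, 1 and 3 sites of the clusters passed in the 3 pairs, 6 different sites, beside 0.0415%, 0.0373% and 0.0249% of all sites. The site at 5956086 on chromosome 6 was methylated in 130 of 536, 312 of 757 and 345 of 891 reads, or 24.3%, 41.2% and 38.7%. It was higher by 16.96 points in replicate 2 than in replicate 1 (adjusted exact p = 2.07e-06) and by 14.5 points in replicate 3 (adjusted exact p = 0.000403). The site at 122864273 on chromosome 14 was at 38.9%, 56.8% and 50.7% (adjusted exact p = 0.00899 between replicates 1 and 2), and that at 18348999 on chromosome 16 at 10.8%, 19.9% and 18.4% (adjusted exact p = 0.0492). In these 3 sites replicate 1 was the lowest. Between replicates 2 and 3 the sites at 144505744 on chromosome 7 (53.7% and 69.1%), 96609452 on chromosome 8 (49.1% and 39.6%) and 39985472 on chromosome 17 passed. At the last the difference was only -0.808 points, over 143905 and 165412 reads.

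Reads were also summed over the covered sites of each cluster and tested in the same way over all 1744 clusters of the series, with a minimum difference of 10 points. In the order of pairs given above, 2, 2 and 0 of the 418 clusters were called (0.479%, 0.479% and 0%), beside 0.401%, 0.344% and 0.115% of all clusters. At an unadjusted p under 0.05 they numbered 74, 70 and 41 (17.7%, 16.7% and 9.81%), beside 10.5%, 10.6% and 7.05%. Without the minimum difference 22, 19 and 6 clusters passed, 33 different ones, beside 3.1%, 3.1% and 0.573%. For clusters the excess spread was 2.54, 2.54 and 1.485. The chi-square test divided by it called none of the 418, beside 0.0573%, 0.115% and 0.115% of all clusters. Of the 3 clusters called, the one on chromosome 6 from 58110596 to 58111697 had 17.5%, 29.0% and 23.3% of its reads methylated (adjusted exact p = 0.0116 between replicates 1 and 2). On chromosome 8 from 95198310 to 95198514 the shares were 59.5%, 70.4% and 70.1% (adjusted exact p = 0.0317 and 0.0376 against replicates 2 and 3). On chromosome 9 from 107134250 to 107134591 they were 47.9%, 51.8% and 59.6% (adjusted exact p = 1.86e-05 between replicates 1 and 3).

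The cluster of chromosome 9 shows how such a sum can move without the sites. Its 3 sites were at 11.3% ± 1.91, 10.2% ± 3.60 and 99.2% ± 0.262 (SD, n = 3), and the mean over sites was 41.6%, 39.0% and 40.03% in the 3 libraries. The methylated site had 373 of 897 reads in replicate 1 and 654 of 1209 in replicate 3. All 3 clusters were called against replicate 1, and without it none was. None of the 3 was called by a Cochran-Mantel-Haenszel test that compares the libraries site by site within each cluster. A call there also needed 10 or more points between the means over sites. The clusters of chromosomes 6 and 9 could not reach that, whatever their p. The outcome does not show that sites stayed level. In the called cluster of chromosome 6 the partial site, 58111553, was at 32.0%, 51.4% and 43.5% in replicates 1, 2 and 3. The Cochran-Mantel-Haenszel test, chosen after the data were seen, called 1 other cluster, on chromosome 7 from 144505744 to 144506124. The level there was 58.8%, 59.6% and 69.4%.

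The rule left out listed sites inside the clusters that had fewer than 10 reads in some library. Of 216 such sites, 110 had at least 10 reads summed over the libraries, with a median of 18. From the summed reads, 39 of the 110 (35.5%, exact Clopper-Pearson interval 26.6% to 45.1%) were partial, 20 low and 51 high. In low-only clusters 25 of 190 such sites (13.2%, interval 8.70% to 18.8%) were partial, in high-only clusters 8 of 56 (14.3%, 6.38% to 26.2%), and in clusters with both low and high sites 24 of 73 (32.9%, 22.3% to 44.9%). The intervals cover counting error over sites and take sites as independent. In single libraries, over sites with 10 reads or more there, the partial share was 38.5% of 13, 14.3% of 14 and 35% of 40 sites in the chosen clusters, and 12% of 25, 13.6% of 22 and 6.49% of 77 in low-only clusters. It was higher in the chosen clusters than in low-only ones in 3 of 3 libraries, though the values of replicate 2 were almost equal. In clusters with both low and high sites it was 40% of 10, 22.2% of 9 and 28.1% of 32 sites, above the chosen clusters in replicates 1 and 2. In high-only clusters it was 14.3% of 7, 0% of 8 and 30.4% of 23 sites.

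Covered sites just outside a cluster were not used to choose that cluster. Some of them belong to another cluster, which can itself be a chosen one, as at Mycl. The shares below are thus partly set by the rule, and how far was not tested. The nearest covered site within 5000 bp on either side was found at 180 places around 157 of the 418 clusters. By their mean levels, 27.8% ± 0.962 (SD of the shares by each library's own levels, n = 3) were partial, 33.3% ± 1.40 low and 38.9% ± 0.642 high. Around low-only clusters 8.77% ± 0.253 of 228 such sites were partial, around high-only clusters 22.4% ± 4.23 of 76 and around clusters with both classes 25.2% ± 2.70 of 107. The partial share was higher around the chosen clusters than around low-only ones in 3 of 3 libraries (28.9%, 28.9% and 27.2% against 8.77%, 8.33% and 8.77%). Against high-only clusters the libraries did not agree, since replicate 1 had 28.9% in both. These shares were not tested. Up to 1000 bp from the cluster 31.9% ± 2.55 were partial, and from there to 5000 bp 20.9% ± 1.72. Beside partial and low clusters 43.6% of the outside sites were low, and beside partial and high clusters 46.2% were high.

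**Figure D5:**
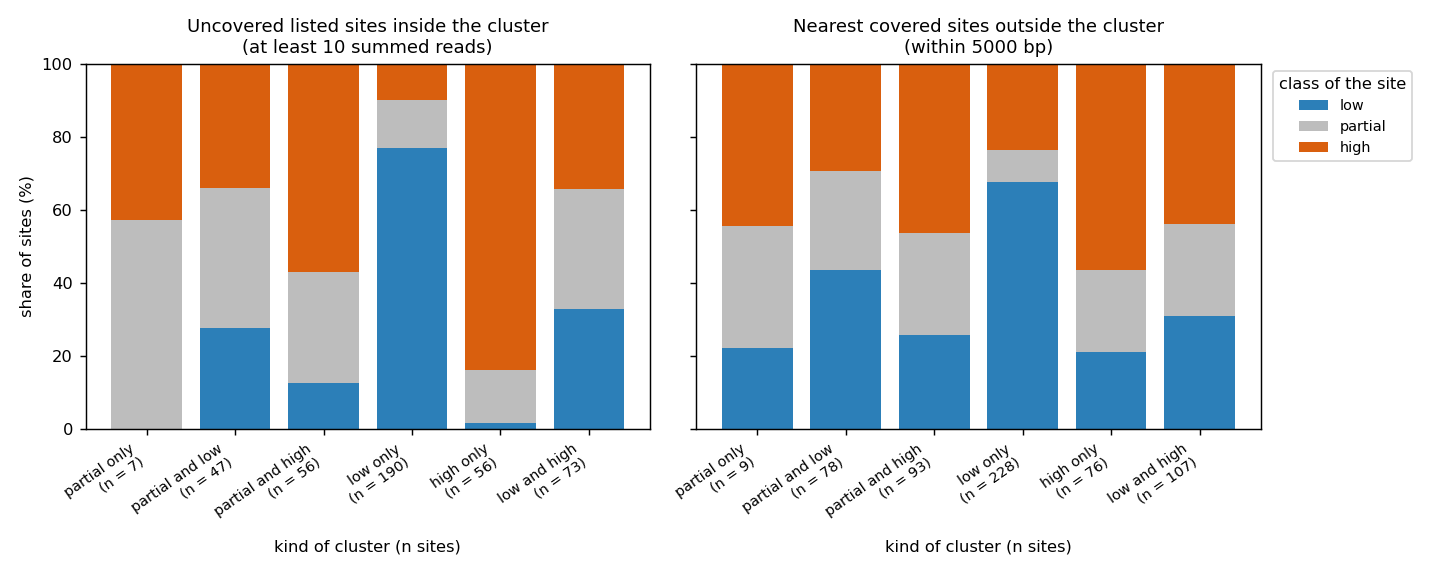
Share (%) of low, partial and high sites among listed sites inside the clusters that missed the coverage minimum (left, at least 10 summed reads) and among the nearest covered sites outside (right, within 5000 bp), for each kind of cluster with its number of sites. The partial share is 13.2% (left) and 8.77% (right) for low-only clusters and 35.5% and 27.8% over the 3 chosen profiles together.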

How the data were processed

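The 3 per-library tables list the same 173449 CCCGGG sites with methylated, unmethylated and total read counts that the authors deposited, not normalized. The deposited tables also give a raw percent and an adjusted percent; from the values, the adjusted percent multiplies the odds of methylated reads by 2.02, 1.81 and 1.73 in replicates 1, 2 and 3. The origin of that factor is not given in those sources. Bowtie2 and SAMtools and the builds mm9 and rn4 are named in the submitters' processing notes, and the site identifiers name mm9 per the file headers. Positions are printed as in the files. The table of the series holds summed counts for 46411 sites and was used as a check; all 46411 totals equalled the sums.

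Levels were computed from the counts with Python 3.11.15, pandas 2.3.3 and SciPy 1.17.1. Members and tests were chosen with earlier results of these data known. The median SD counts as moved in the closing comparison when it changes by over 10%. Named clusters were, per profile, the 5 with the most reads and the 3 with the most covered sites, then the 5 with the largest SD, those called between libraries and those nearest the limits. Gene lists written for an mm9 annotation were not analysed here. Starts were matched by spacing: 155 of 157 promoters with at least 3 CCCGGG sites matched 1 place on their chromosome, as did 73 of 659 with 2. A match also had to lie within 10 Mb of the position in GRCm38.p6, which 155 and 72 did. The plan named no gene without an mm9 annotation; the match, the use of promoters with 2 sites and the limit of 10 Mb were added later, the last 2 once the matched clusters had been listed. Intervals and depths cover counting error only, since copies of a molecule may be counted repeatedly. The pairwise test was tested on simulated counts with counting error alone. Those counts lacked the excess spread of the libraries, so they do not show how often false calls arise here. Alternatives changed the coverage minimum, gap limit, class limits, percent column, test and libraries.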

Additional observations from a re-analysis of the deposited data

How the results depend on the processing

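No paired analysis was possible because the 3 libraries form 1 group. The set kept its share of the autosomal clusters, from 23.4% to 25.2%, under each rebuilt rule, but not its size or members. A gap limit of 250 bp left 176 clusters (16 partial-only, 64 with low and 96 with high sites), which overlapped 156 of the 418. A minimum of 50 reads in every library left 280, with 140 beside high sites, and 0 clusters called between libraries. The adjusted percent gave 399 clusters overlapping 333 of the 418, and class limits of 20% and 80% gave 419 overlapping 340. A gap limit of 1000 bp gave 561. Without 1 library in turn, with coverage then required only in the libraries kept, there were 419 to 433 clusters. The partial-only count was 26 to 28, that with low sites 164 to 170 and that with high sites 229 to 237.

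The median SD at partial sites was 2.18 points with at least 50 reads, 3.29 and 3.05 with gap limits of 250 and 1000 bp, 3.13 by the adjusted percent, and 2.03 to 2.33 without 1 library, where an SD over 2 libraries is not comparable with one over 3. Without the 2 deepest clusters, an alternative chosen after the data were seen, it was 2.58. Clusters called between libraries numbered 3 in all, 6 with a gap limit of 1000 bp and 2 with one of 250 bp. They numbered 33 with no minimum difference, 0 by the chi-square test divided by the excess spread, 1 by the Cochran-Mantel-Haenszel test and 0 to 3 without 1 library. The calls were not all the same clusters. By start position, 1 of the 6, 1 of the 2 and 2 of the 3 found without replicate 2 were among the main 3. Sites called numbered 0, or 6 with no minimum difference. The partial share of uncovered sites was 28.9% to 33.8% without 1 library. The partial share just outside was 31.4% within 2000 bp and 25.9% to 28.1% without 1 library. The cause of these shifts was not tested. Depth limits the single-site values: partial sites with fewer than 300 reads had a median SD of 6.21 points.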
